A study of Mus musculus with 10 samples.

Results

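The genes of MHC class II antigen presentation were followed in jejunal epithelial cells of mice that had lost myosin Vb (MYO5B). The members were given as a list of symbols: the invariant chain gene Cd74, the classical chain genes H2-Aa, H2-Ab1 and H2-Eb1, the peptide-loading genes H2-DMa, H2-DMb1 and H2-DMb2, the inhibitor genes H2-Oa and H2-Ob, and the transactivator gene Ciita. All 10 were found by symbol among the 35275 genes of the deposited table, and 9 of them (all but H2-Oa) reached the mean of 0.1 FPKM over the 10 libraries that was required for a test. H2-DMb2 and H2-Ob reached it through the groups where they were highest, so their passing the filter says nothing on its own.

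All 10 mice were adult VillinCreERT2;MYO5Bflox/flox animals of strain C57BL/6, labelled male, in which a tamoxifen-inducible Cre under the villin promoter can delete Myo5b in intestinal epithelium. The 3 control mice (mice 2, 4 and 5) received corn oil and were not induced. The 4 MYO5B-knockout mice (mice 3, 5, 6 and 7) received 2 mg of tamoxifen once and then vehicle, bovine serum albumin in PBS, intraperitoneally for 4 days. The 3 LPA-treated MYO5B-knockout mice (mice 1, 4 and 5) received the same tamoxifen dose and then lysophosphatidic acid (LPA) at 3 mg/kg intraperitoneally for 4 days. Tamoxifen and the daily injections therefore differed from control in both knockout groups together with the gene loss, and their parts cannot be told apart. Cells were freed mechanically from jejunum in cold PBS with EDTA, without sorting, and polyadenylated RNA was sequenced. The description of LPA-treated mouse 1 names both vehicle and LPA, and its title was followed.

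MHC class II molecules are pairs of an alpha and a beta chain that carry peptides from the endosomal route to CD4+ T cells. The invariant chain guides the new pair to endosomes and fills its groove. H2-DM then exchanges the remaining invariant chain fragment for peptide, H2-O holds H2-DM back, and proteases such as cathepsins trim both the invariant chain and the antigens. Transcription of the set depends on CIITA, a coactivator that binds no DNA itself but docks on the RFX, CREB and NF-Y factors assembled on the X and Y boxes of these promoters. Dendritic cells, macrophages and B cells carry class II constitutively. Enterocytes of the small intestine also make it, and interferon-gamma raises it there through CIITA. Mice of the b haplotype, such as C57BL/6, do not express H2-Ea, so that the H2-Eb1 chain lacks its usual partner.

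The promoter stretches that hold the Y box are shown because they set abundant members (H2-Aa, H2-Eb1 and H2-DMb1) beside members near the limit of detection (H2-DMb2, H2-Oa and H2-Ob). RefSeq promoter sequences on GRCm38.p6, from 250 bases before to 50 after the start, were at hand for 7 of the 10 members, and not for Cd74, H2-Ab1 and Ciita. The stretches below are 60 bases each, read 5' to 3' on the strand of the gene, with the capitals marking the Y box core (ATTGG, the reverse of CCAAT), the X1 core GCAAC and the X2 core TGACG or its reverse CGTCA.
H2-Aa: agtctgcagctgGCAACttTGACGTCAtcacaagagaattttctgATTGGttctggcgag
H2-Eb1: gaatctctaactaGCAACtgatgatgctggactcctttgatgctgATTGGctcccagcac
H2-Oa: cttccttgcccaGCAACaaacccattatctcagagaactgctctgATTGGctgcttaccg
H2-Ob: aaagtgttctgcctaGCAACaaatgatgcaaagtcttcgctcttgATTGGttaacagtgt
H2-DMb1: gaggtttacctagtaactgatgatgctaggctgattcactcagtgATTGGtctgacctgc
H2-DMb2: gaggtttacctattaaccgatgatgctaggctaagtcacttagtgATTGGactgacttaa

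The stretches lie on chromosome 17 of GRCm38.p6. That of H2-Aa is at chr17:34287857-34287916 on the minus strand. Those on the plus strand are at chr17:34305763-34305822 for H2-Eb1, chr17:34092291-34092350 for H2-Oa, chr17:34238803-34238862 for H2-Ob, chr17:34153085-34153144 for H2-DMb1 and chr17:34145114-34145173 for H2-DMb2. The Y core began 48 bases before the RefSeq start of H2-Aa, 59 before that of H2-Eb1, 43 before that of H2-Oa, 57 before that of H2-Ob, 61 before that of H2-DMb1 and 90 before that of H2-DMb2. In H2-Aa, H2-Eb1, H2-Oa and H2-Ob an X1 core stood 28, 27, 28 and 25 bases ahead of the Y core. The stretches of H2-DMb1 and H2-DMb2 held no X1 core as spelled here and were identical at 51 of 60 bases, read without gaps. The table lists 2 starts for H2-DMa, 9664 and 12350 bases from the start of the gene in the deposited table, and neither is printed. For H2-DMb1 and H2-DMb2 the RefSeq start lay 119 and 1942 bases into the gene as deposited, so both printed stretches fall inside it.

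Searched on both strands over 300 bases, CCAAT was present in 7 of the 8 member promoters and in 37.4% of all 32851 promoters. GCAAC was present in 5 of 8 and in 35.2% of all, and TGACG in 1 of 8 and in 20.8% of all. In H2-Aa, TGACG and its reverse complement CGTCA overlapped. The arrangement GCAAC followed by ATTGG after 20 to 30 bases on the strand of the gene was chosen after these sequences were seen. It was present in 4 of the 8 member promoters and in 0.280% of all promoters. The window was placed on the longer match TGATTGG, which 6 of 8 member promoters and 4.01% of all hold. These matches describe letters, and no binding was measured.

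The libraries held 10949420 to 24470409 reads on genes. Control mouse 2 and MYO5B-knockout mouse 3 stood apart, with 12242 and 12601 detected genes against 17309 to 18267 in the other 8 libraries, and with mitochondrial genes at 17.4% and 18.0% of reads against 1.98% to 3.5%. They are called the sparse libraries here. MYO5B-knockout mouse 3 and LPA-treated mouse 1 went against the label male, with Xist at 8.41 and 15.1 FPKM and 0 reads on Kdm5d, Uty, Ddx3y and Eif2s3y, and are called the mismatched libraries. Results are also given without each of these pairs, a choice made after seeing the data. Myo5b lay between 16.5 and 32 FPKM in control mice and between 10.3 and 13.6 FPKM in the 7 induced mice. The typical gene was not centred at 0. Over all 15729 tested genes, the median log2 fold change was 0.29 between MYO5B-knockout and control mice, 0.11 between LPA-treated and vehicle-treated MYO5B-knockout mice, and 0.41 between LPA-treated MYO5B-knockout and control mice. With median-ratio scaling these medians became 0.04, 0.04 and 0.10.

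Class II genes fell in part: 3 of the 9 members tested passed as lower against control, both with vehicle and with LPA. Of all tested genes, 0.884% and 0.776% did. The 2 comparisons share their control mice, and the calls were fragile: in each comparison the count fell to 0 when certain single mice were left out. Between MYO5B-knockout and control mice, H2-Ab1, H2-Eb1 and H2-DMa fell, to fitted levels 12.1-fold, 11.5-fold and 8.99-fold lower. Cd74, H2-Aa and H2-DMb1 had fitted levels 10.1-fold, 15.0-fold and 8.01-fold lower without passing the test. Ciita, H2-DMb2, H2-Ob and H2-Oa were low in all groups. Between LPA-treated and vehicle-treated knockout mice, 0 members passed. Levels below are in FPKM, which is scaled to gene length and library size, and folds come from a limma model of log2(FPKM + 0.1). A mouse with fewer class II cells and a mouse with less class II RNA per cell cannot be told apart in RNA of a whole cell preparation.

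**Figure D1:**
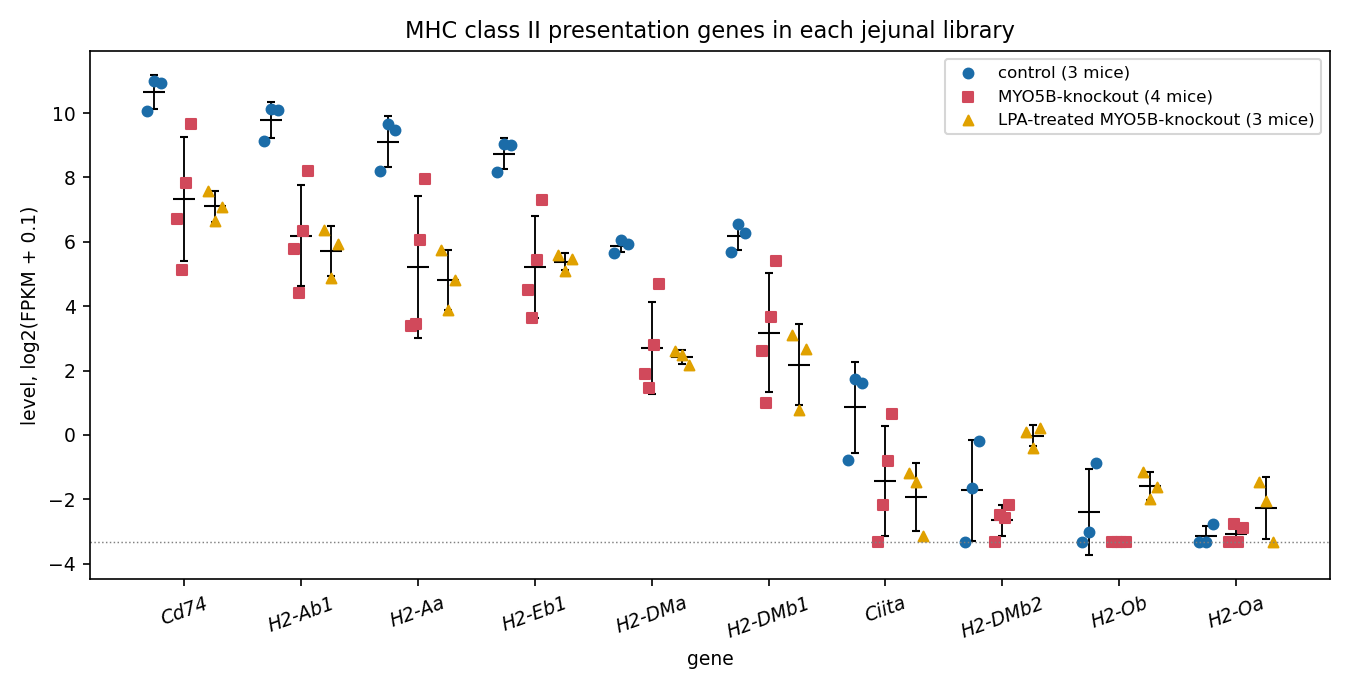
Level of each member as log2(FPKM + 0.1) in the 10 libraries, by group. Points are mice, horizontal bars the group means and whiskers 1 SD. The dotted line marks 0 FPKM. From Cd74 to H2-DMb1 all control mice sit above all knockout mice, and the highest knockout point is mouse 7 for each of them. At H2-DMb2 and H2-Ob the LPA-treated mice sit above the vehicle-treated ones, as they do for 3.56% of all tested genes. Both members reached the filter through the groups where they were highest, so no conclusion is drawn from this share.

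Cd74 encodes the invariant chain and was the most abundant member (ENSMUSG00000024610, chromosome 18 from 60803848 to 60812646, plus strand). It was at 1067, 2058 and 1945 FPKM in control mice 2, 4 and 5. MYO5B-knockout mice 3, 5, 6 and 7 had 105, 34.7, 227 and 817 FPKM, and LPA-treated mice 1, 4 and 5 had 191, 99.2 and 135 FPKM. Control and knockout mice did not overlap, although MYO5B-knockout mouse 7 came near the lowest control mouse. Cd74 averaged 1690 ± 542 FPKM in control (SD, n = 3), 296 ± 357 in MYO5B-knockout (SD, n = 4) and 142 ± 46.2 in LPA-treated mice (SD, n = 3). The log2 fold change was -3.33 between MYO5B-knockout and control mice (SE 0.84, limma's adjusted p = 0.0711) and -3.57 between LPA-treated MYO5B-knockout and control mice (limma's adjusted p = 0.0744). Both missed the threshold.

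The classical chains form the surface molecule that holds the peptide. H2-Ab1, the beta chain of I-A (ENSMUSG00000073421, chromosome 17 from 34263209 to 34269418, plus strand), was at 566, 1129 and 1083 FPKM in the control mice. MYO5B-knockout mice had 55.2, 21.4, 80.9 and 295 FPKM and LPA-treated mice 82.6, 29.2 and 60.5 FPKM. Every knockout library lay below every control library. The log2 fold change was -3.60 in MYO5B-knockout mice (SE 0.74, limma's adjusted p = 0.0392) and -4.07 in LPA-treated mice (SE 0.79, limma's adjusted p = 0.0300), both against control.

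H2-Aa, the alpha chain of I-A (ENSMUSG00000036594, chromosome 17 from 34282744 to 34287827, minus strand), was at 293, 809 and 714 FPKM in control mice. MYO5B-knockout mice had 10.4, 10.8, 65.8 and 246 FPKM and LPA-treated mice 53.6, 14.6 and 28.2 FPKM. Control and knockout mice did not overlap, but knockout mouse 7 reached 246 FPKM beside 293 FPKM in control mouse 2. Against control, H2-Aa stood at -3.91 on the log2 scale in MYO5B-knockout mice (SE 1.01, limma's adjusted p = 0.0745) and -4.30 in LPA-treated mice (SE 1.08, limma's adjusted p = 0.0726). Neither passed by limma, whereas both passed by DESeq2 on recovered reads (DESeq2's adjusted p = 0.00950 and 0.000122).

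H2-Eb1, the beta chain of I-E (ENSMUSG00000060586, chromosome 17 from 34305877 to 34316199, plus strand), was at 289, 522 and 515 FPKM in control mice. MYO5B-knockout mice had 22.6, 12.2, 43.4 and 157 FPKM and LPA-treated mice 48.5, 34.0 and 44.1 FPKM. The spread over the LPA-treated mice was 1.43-fold, against 12.9-fold over the vehicle-treated knockout mice. Against control, the log2 fold change was -3.52 in MYO5B-knockout mice (SE 0.70, limma's adjusted p = 0.0353) and -3.35 in LPA-treated mice (SE 0.74, limma's adjusted p = 0.0477).

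H2-DM edits the peptide cargo. Its alpha chain gene H2-DMa (ENSMUSG00000037649, chromosome 17 from 34135182 to 34139101, plus strand) was at 50, 65.8 and 60.7 FPKM in control mice. MYO5B-knockout mice had 3.58, 2.65, 6.83 and 25.6 FPKM and LPA-treated mice 5.99, 5.46 and 4.44 FPKM. H2-DMa was the member whose control mice were most alike, within 1.32-fold of each other. It fell by 3.17 on the log2 scale in MYO5B-knockout mice (SE 0.64, limma's adjusted p = 0.0376) and fell by 3.45 in LPA-treated mice (SE 0.68, limma's adjusted p = 0.0315), both against control.

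The DM beta chain has a pair of neighbouring, near-identical genes, between which reads could be divided by the counting. H2-DMb1 (ENSMUSG00000079547, chromosome 17 from 34153072 to 34160230, plus strand) was at 51.5, 93.9 and 77.9 FPKM in control mice. Its level was 6.05, 1.90, 12.7 and 42.4 FPKM after MYO5B loss with vehicle, and 8.53, 1.61 and 6.31 FPKM after MYO5B loss with LPA. The groups did not overlap between control and either knockout group. Its log2 fold change was -3.0 in MYO5B-knockout mice (SE 0.90, limma's adjusted p = 0.117) and -3.99 in LPA-treated mice (SE 0.97, limma's adjusted p = 0.0626), so neither passed. By DESeq2 on recovered reads both did (DESeq2's adjusted p = 0.0302 and 0.000178).

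Ciita, the transactivator (ENSMUSG00000022504, chromosome 16 from 10488178 to 10527564, plus strand), was expressed at a low level. It was at 0.483, 3.23 and 2.95 FPKM in control mice, which are 28, 261 and 271 reads. MYO5B-knockout mice had 0, 0.121, 0.466 and 1.46 FPKM and LPA-treated mice 0.342, 0.264 and 0.0143 FPKM, the last a single read. Control mouse 2, a sparse library, lay within the range of the MYO5B-knockout mice, so these groups overlapped. The LPA-treated mice all lay below the control mice. Against control, Ciita stood at -2.27 on the log2 scale in MYO5B-knockout mice (SE 1.00, limma's adjusted p = 0.272) and -2.78 in LPA-treated mice (SE 1.07, limma's adjusted p = 0.226). Without the 2 sparse libraries it was -2.46 (limma's adjusted p = 0.136) and -3.59 (limma's adjusted p = 0.0478). Dexi overlaps Ciita on the other strand over 25034 bases and held 1223 reads in all against 863 on Ciita, and whether counting used strand is not given in the sources used here.

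Counted over the members tested, 3 of 9 passed as lower in MYO5B-knockout against control mice (H2-Ab1, H2-Eb1 and H2-DMa), where 0.884% of all tested genes did, and 0 passed as higher. The members' median log2 fold change was -3.17, beside 0.29 over all tested genes. The MYO5B-knockout mice lay below all control mice without overlap for 6 of the 9, against 6.2% of all genes. By DESeq2 on recovered reads, 3 members also passed, but they were H2-Aa, H2-DMb1 and H2-Ob, and DESeq2 gave no adjusted p for Cd74, H2-Ab1, H2-Eb1 and H2-DMa. The 3 calls by limma were fragile. With each mouse left out in turn, 0 members passed without control mouse 2, 4 or 5, without MYO5B-knockout mouse 3, 5 or 6, and without LPA-treated mouse 1, 4 or 5. Without MYO5B-knockout mouse 7, 5 passed (Cd74 and H2-Aa beside the 3). The log2 fold change of H2-Ab1 stayed between -4.27 and -3.01 in these 10 fits, with limma's adjusted p between 0.0115 and 0.152. Without the 2 sparse libraries, and without the 2 mismatched libraries, 0 members passed. H2-Ab1 then stood at -3.79 (limma's adjusted p = 0.0683) and -3.47 (limma's adjusted p = 0.0805).

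Between LPA-treated MYO5B-knockout and control mice, the same 3 genes passed as lower, 3 of 9 against 0.776% of all tested genes. The members' median log2 fold change was -3.45, beside 0.41 over all tested genes. The LPA-treated mice lay below all control mice for 7 of the 9, against 6.38% of all genes. This comparison shares its control mice with the former one, so that the agreement of the calls is not independent. The counts of members passing were 1 without control mouse 2, 0 without control mouse 4 or 5, and 3, 5, 0 and 6 without MYO5B-knockout mouse 3, 5, 6 and 7. They were 0 without LPA-treated mouse 1, 4 or 5. Without the 2 sparse libraries 5 passed (H2-Ab1, H2-DMa, H2-Eb1, H2-Aa and Ciita), and without the 2 mismatched libraries 0 passed. DESeq2 called H2-Aa, H2-DMb1 and Ciita (DESeq2's adjusted p = 0.0484 for Ciita) and again gave no adjusted p for Cd74, H2-Ab1, H2-Eb1 and H2-DMa.

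**Figure D2:**
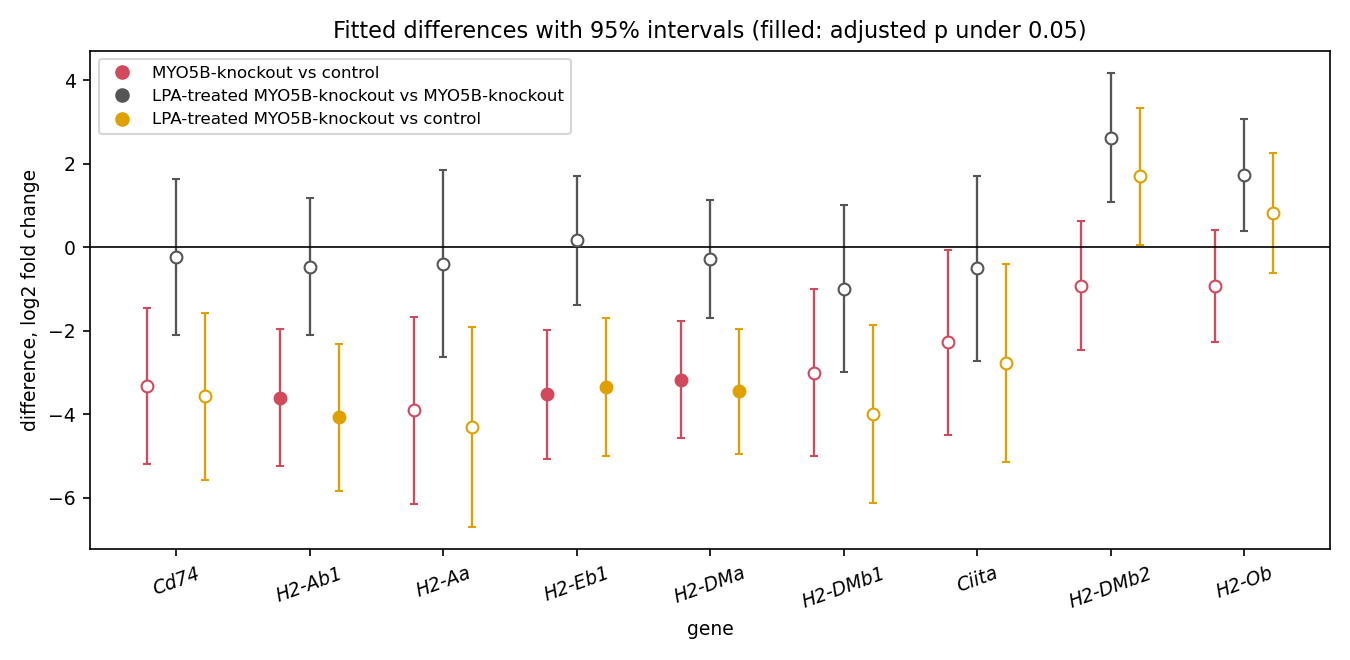
Fitted log2 fold change of the 9 members tested in the 3 comparisons, with 95% intervals from the limma model. Filled points passed an adjusted p of 0.05. H2-Ab1, H2-Eb1 and H2-DMa are filled in both comparisons with control, and the grey points of LPA-treated against vehicle-treated knockout mice lie near 0 for Cd74 to H2-DMa.

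Between LPA-treated and vehicle-treated MYO5B-knockout mice, 0 of 9 members passed by limma, where 0% of all tested genes did. The count was also 0 by edgeR, and by DESeq2 for the 4 members to which it gave an adjusted p. At limma's unadjusted p under 0.05 were 2 of the 9 members, H2-DMb2 and H2-Ob, and 459 of the 15729 tested genes. Both members had reached the filter through the groups where they were highest, so no conclusion is drawn from this count. The difference for H2-Ab1 was -0.47 on the log2 scale, with a 95% interval from -2.11 to 1.17. For Cd74 it was -0.24 (interval -2.10 to 1.63), and for H2-Eb1 0.17 (interval -1.37 to 1.71). These intervals include both a 2-fold rise and a more than 2-fold fall, so a change of that size in either direction is not excluded. For these genes the LPA-treated mice lay inside the wide range of the vehicle-treated mice, between mouse 5 and mouse 7.

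Cells that express the H2-O chains and H2-DMb2 include B cells, and the 3 genes were near the limit of detection. H2-DMb2 (ENSMUSG00000037548, chromosome 17 from 34143307 to 34151553, plus strand) had 0, 5 and 20 reads in control mice, 0, 2, 2 and 4 in MYO5B-knockout mice and 35, 17 and 21 in LPA-treated mice. The LPA-treated mice all lay above the vehicle-treated mice for H2-DMb2 and H2-Ob, 2 of the 9 members tested, against 3.56% of all tested genes. Both had reached the filter through the groups where they were highest, so no conclusion is drawn from this count either. As levels, H2-DMb2 was at 0.964, 0.663 and 1.06 FPKM with LPA, against 0 to 0.120 FPKM with vehicle. Control mouse 5, at 0.770 FPKM of H2-DMb2, lay among the LPA-treated mice. Pooled over mice and set against reads on genes, the ratio of LPA-treated to vehicle-treated mice was 11.8, with an exact 95% interval of 5.68 to 28.3 that covers counting error only. The log2 fold change between these groups was 2.62 (SE 0.70, unadjusted p = 0.00339, limma's adjusted p = 1) and failed the correction. Between MYO5B-knockout and control mice the ratio of pooled reads was 0.198 (exact 95% interval 0.0770 to 0.452, counting error only), and limma's log2 fold change was -0.92 (adjusted p = 0.530).

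H2-Ob (ENSMUSG00000041538, chromosome 17 from 34238903 to 34245907, plus strand) had 0, 1 and 21 reads in control mice, 0 reads in all 4 MYO5B-knockout mice and 23, 7 and 8 reads in LPA-treated mice. A count of 0 allows 3 reads in a library, on average 0.0681 FPKM in the MYO5B-knockout mice. Against that level, the mean of the LPA-treated mice, 0.243 FPKM, was 3.56-fold higher. That mean carries no allowance for counting error, so 3.56-fold is not a lower limit. The control mean of 0.158 FPKM rested on mouse 5 and was 0.0122 FPKM without it. The log2 fold change between LPA-treated and vehicle-treated mice did not pass (unadjusted p = 0.0162, limma's adjusted p = 1). H2-Oa (ENSMUSG00000024334, chromosome 17 from 34092340 to 34095234, plus strand) had 0, 0 and 1 reads in control, 0, 1, 0 and 1 in MYO5B-knockout and 8, 3 and 0 in LPA-treated mice, and was not tested.

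**Figure D3:**
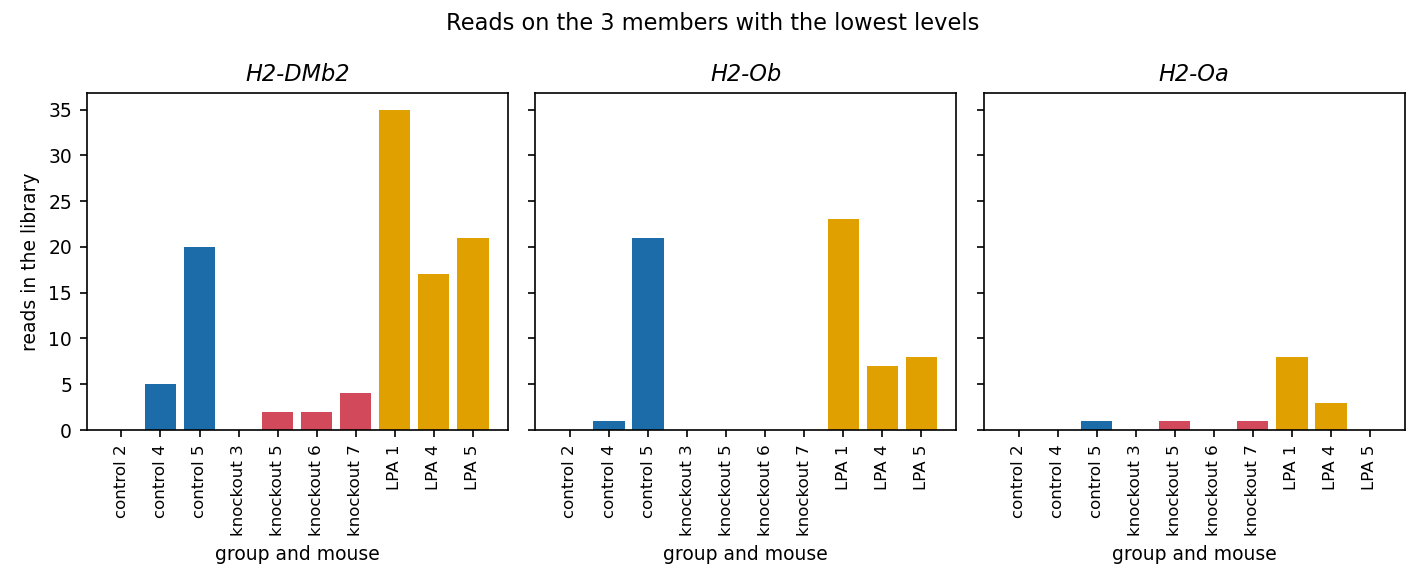
Reads on H2-DMb2, H2-Ob and H2-Oa in each library, in bars from 0, by group and mouse. LPA-treated mice 1, 4 and 5 hold 35, 17 and 21 reads on H2-DMb2 and 23, 7 and 8 on H2-Ob, whereas the 4 vehicle-treated knockout mice hold at most 4 and 0.

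B cell markers were read beside these genes. Cd79a, a chain of the B cell receptor complex, was at 4.23, 0.580 and 1.69 FPKM in control mice. MYO5B-knockout mice had 0.125, 0.0796, 0.168 and 0.0304 FPKM, and LPA-treated mice 1.51, 0.952 and 0.876 FPKM. Of the 10 B cell markers, 5 were tested, and 1 passed as lower in MYO5B-knockout against control mice (Cd79a, log2 fold change -3.16, limma's adjusted p = 0.0379). In the other comparisons 0 passed. Between MYO5B-knockout and control mice, the fitted difference was below 0 for 3 of the 5 and above 0 for 2. Those 2 were Ms4a1 at 0.29 and Cd79b at 0.23 on the log2 scale. Between LPA-treated and vehicle-treated mice, 4 lay above 0 and 1 below (Spib, -0.27). Their summed level ranged from 5.28 to 10.1 FPKM in control, 2.93 to 5.33 in MYO5B-knockout and 3.83 to 7.40 in LPA-treated mice. The part of B cells in the H2-DMb2 and H2-Ob values was not tested.

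Levels per length placed Cd74 first and H2-Ab1 next in the mean of every group. In control mice the order from Cd74 through H2-Ab1, H2-Aa, H2-Eb1, H2-DMb1 and H2-DMa to Ciita held in 3 of 3 mice at each step. In MYO5B-knockout mice H2-Aa stood above H2-Eb1 in 2 of 4 mice and H2-DMb1 above H2-DMa in 3 of 4, so these neighbours did not separate. In LPA-treated mice H2-Ab1 stood above H2-Eb1 in 2 of 3 mice and H2-Eb1 above H2-Aa in 2 of 3, so these did not separate either. Over the 4 MYO5B-knockout mice the members spread widely, from 9.66-fold for H2-DMa to 23.7-fold for H2-Aa, with mouse 7 highest for all of Cd74, H2-Aa, H2-Ab1, H2-Eb1, H2-DMa, H2-DMb1 and Ciita.

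The members held to steadier proportions than their levels did. The Cd74 to H2-Ab1 ratio was 1.89, 1.82 and 1.80 in control mice, 1.89, 1.62, 2.80 and 2.77 in MYO5B-knockout mice and 2.31, 3.40 and 2.23 in LPA-treated mice, while Cd74 itself ranged from 34.7 to 2058 FPKM. The ratio of the I-A alpha to beta chain genes, H2-Aa to H2-Ab1, lay between 0.465 and 0.835 in 9 libraries and was 0.189 in MYO5B-knockout mouse 3, a sparse library. The H2-DMa to H2-DMb1 ratio lay between 0.540 and 1.39, except in LPA-treated mouse 4 at 3.40, where H2-DMb1 had 39 reads. Set against the epithelial adhesion gene Epcam, H2-Ab1 stood at 0.901, 1.12 and 1.03 in control mice, 0.0792, 0.0318, 0.100 and 0.279 in MYO5B-knockout mice and 0.0997, 0.0253 and 0.0799 in LPA-treated mice. These are descriptions within libraries, with no test.

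**Figure D4:**
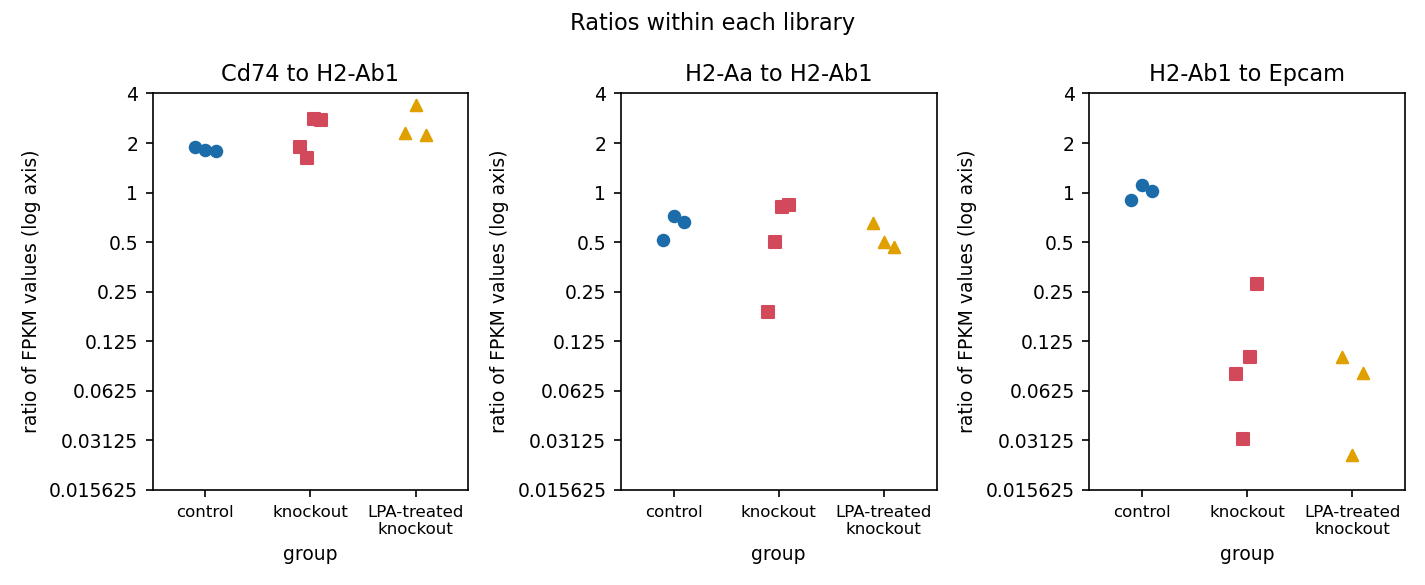
Ratios of FPKM values within each library on a log axis, by group, for Cd74 to H2-Ab1, H2-Aa to H2-Ab1 and H2-Ab1 to Epcam. Points are mice. The first ratio stays between 1.62 and 3.40, whereas H2-Ab1 to Epcam is 0.901 to 1.12 in control and at most 0.279 in knockout mice.

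Regulators upstream of the set were read next. Of 9 genes for the factors that bind class II promoters with CIITA (RFX, NF-Y, CREB and their coactivators), 0 passed in any comparison by limma. Their median log2 fold change was 0.41 between MYO5B-knockout and control mice, beside 0.29 over all genes. Rfx5, the DNA-binding RFX subunit, was at 0.238 FPKM on average in control and 0.430 FPKM in MYO5B-knockout mice. Of 9 genes on the interferon-gamma route to Ciita, 0 passed in any comparison. Ifngr2, the signalling chain of the receptor, averaged 65.9 FPKM in control and 32.1 FPKM in MYO5B-knockout mice (log2 fold change -1.05, limma's adjusted p = 0.0548). Without the 2 sparse libraries, it passed (-1.04, limma's adjusted p = 0.0390). Between LPA-treated and control mice, without those libraries, Ifngr2 passed as lower (-0.85, limma's adjusted p = 0.0476) and Ifngr1, the ligand-binding chain, as higher (1.03, limma's adjusted p = 0.0439). Ifng itself, the ligand, was at 0 to 0.379 FPKM in control, 0 to 0.0405 FPKM in MYO5B-knockout and 0 to 0.431 FPKM in LPA-treated mice. These levels rest on at most 8, 1 and 9 reads in a library of the 3 groups.

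Of 8 genes of endosomal processing, which include proteases that cut the invariant chain and antigens, 0 fell, 1 rose between MYO5B-knockout and control mice and 2 rose between LPA-treated MYO5B-knockout and control mice. Lgmn, asparaginyl endopeptidase, was at 23.6, 11.9 and 13.0 FPKM in control mice. MYO5B-knockout mice had 92.6, 74.4, 52.6 and 60.2 FPKM, and LPA-treated mice 91.2, 106 and 166 FPKM. Its log2 fold change against control was 2.14 (limma's adjusted p = 0.0152) and 2.92 (limma's adjusted p = 0.00375). Ctsl, cathepsin L, was at 5.74, 10.8 and 14.0 FPKM in control and 44.4, 62.4 and 63.3 FPKM in LPA-treated mice, and rose by 2.54 on the log2 scale (limma's adjusted p = 0.0116).

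Class I presentation genes were read beside class II. Classical class I molecules show cytosolic peptides to CD8+ T cells, and the list also holds the nonclassical genes H2-T3 and H2-T23. Of 13, 3 fell and 0 rose in MYO5B-knockout against control mice. Their log2 fold changes had a median of -1.71, beside 0.29 over all genes. H2-T23 fell from a mean of 198 to 50.6 FPKM (log2 fold change -2.14, limma's adjusted p = 0.0273), H2-T3 from 114 to 21.2 FPKM (-2.69, limma's adjusted p = 0.0335) and Tapbp, tapasin, from 200 to 46.8 FPKM (-2.20, limma's adjusted p = 0.0267). Erap1, a trimming peptidase, stood at 0.04, Nlrc5, the class I transactivator, at -0.07 and H2-D1 at -0.85 (limma's adjusted p = 0.980, 0.976 and 0.319). The same 3 genes passed between LPA-treated MYO5B-knockout and control mice, with values of -2.40, -3.23 and -2.15. Between LPA-treated and vehicle-treated mice 0 passed by limma. Without the 2 sparse libraries, 1 of the 13 passed between MYO5B-knockout and control mice (H2-T23) and 4 between LPA-treated and control mice.

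Markers of the cells in the preparation were read beside the members. The summed level of 10 epithelial markers was 6918 to 8497 FPKM in control, 8954 to 11724 in MYO5B-knockout and 10911 to 13330 in LPA-treated mice. Epithelial cells were thus present in all libraries as labelled. Krt8 was the largest part, averaging 2639, 3794 and 4175 FPKM in these groups. Fitted differences from control were above 0 for 6 markers and below 0 for 4 with vehicle, and 8 and 2 with LPA. Vil1, below 0 in both, averaged 656, 433 and 305 FPKM. The summed level of 10 T cell markers was 292 to 408 FPKM in control, 11.3 to 120 in MYO5B-knockout and 21.7 to 41.2 in LPA-treated mice. Most of this sum was Gzma, a granzyme, at 320, 226 and 331 FPKM in control mice. Of the 10, 1 fell in MYO5B-knockout (Gzma, -3.18 on the log2 scale, limma's adjusted p = 0.0438) and 2 in LPA-treated mice (Gzma and Cd3g), against control. Cd2 stood at 0.16 and Trac at -0.01 between LPA-treated and control mice (limma's adjusted p = 0.938 and 1). Without the 2 sparse libraries the counts of T cell markers that fell were 0 and 2, the latter being Cd3g and Cd3d. Cd2 and Trac had 0 reads in control mouse 2, a sparse library. Without the sparse libraries they stood at -0.66 and -2.27 between LPA-treated and control mice (limma's adjusted p = 0.466 and 0.247). The sum of 10 general leukocyte markers was 56.8 to 96.1 FPKM in control, 12.6 to 29.2 in MYO5B-knockout and 28.0 to 32.7 in LPA-treated mice, and 1 fell (Cd52, log2 fold change -1.64 in MYO5B-knockout against control mice, limma's adjusted p = 0.0352).

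Cells that carry class II constitutively were read by their own markers. The 10 dendritic cell markers summed to 4.98 to 12.5 FPKM in control, 1.09 to 2.45 in MYO5B-knockout and 1.75 to 2.74 in LPA-treated mice, and 4 of them reached the test, of which 0 passed. Batf3 was at 10.2, 0.365 and 0.722 FPKM in control mice, Cst7 at 1.38, 3.36 and 4.87 FPKM and Itgax at 0.940, 0.787 and 1.06 FPKM. Their log2 fold changes between MYO5B-knockout and control mice were -2.17, -2.57 and -1.75 (limma's adjusted p = 0.341, 0.161 and 0.175). Xcr1, Clec9a, Cd209a and Flt3 were each at or under 0.154 FPKM in control mice. The 9 macrophage markers summed to 37.3 to 90 FPKM in control, 11.9 to 39.8 in MYO5B-knockout and 21.1 to 73.2 in LPA-treated mice, and of 8 tested 0 passed. Among them C1qa, a complement gene, was at 67.9, 3.06 and 5.93 FPKM in control mice 2, 4 and 5, whereas Cd163 was at 0 in each of them. Mertk, at 6.65, 29.6 and 33.8 FPKM, was the largest part of the sum in control mice 4 and 5. Fitted differences of the macrophage markers from control were above 0 for 2 and below 0 for 6 with vehicle. With LPA, 7 lay above 0 and 1 below (Mertk). The ratio of Cd74 to Ptprc, the general leukocyte gene CD45, was 2910, 743 and 574 in control mice, 660, 103, 181 and 520 in MYO5B-knockout mice and 177, 83.2 and 312 in LPA-treated mice. The part of leukocytes in the class II values was not tested.

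**Figure D5:**
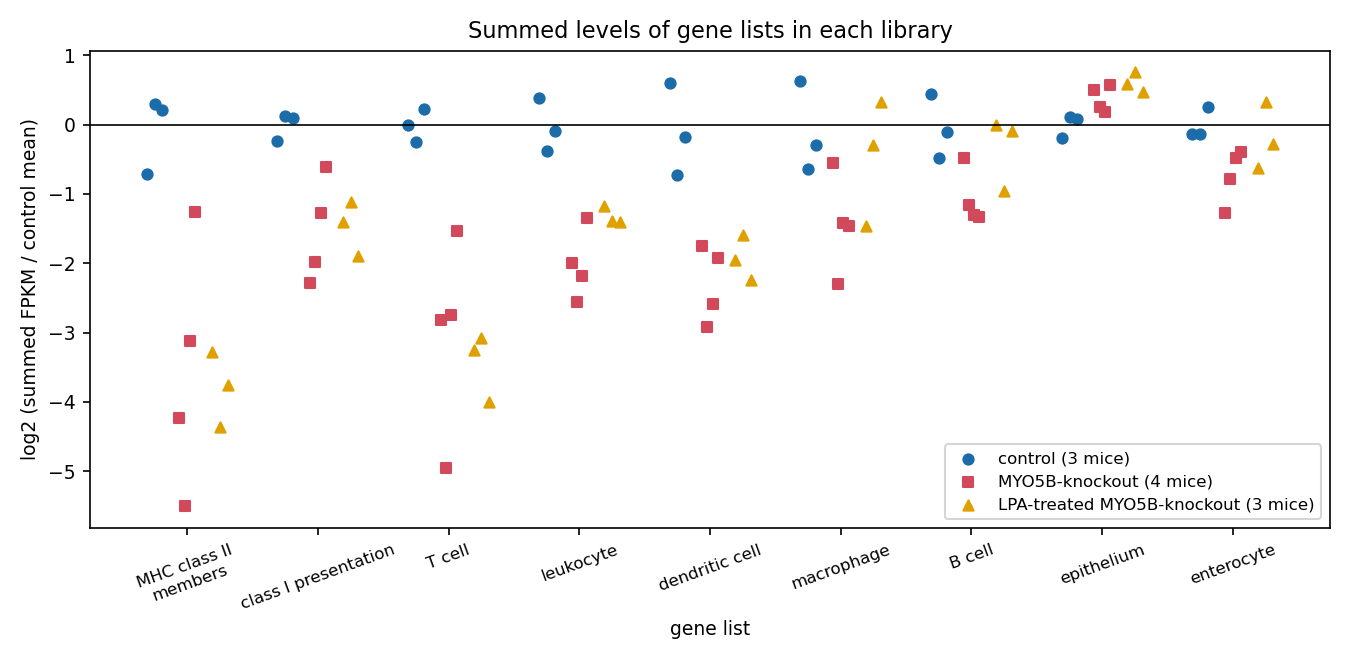
Summed FPKM of gene lists in each library, as log2 of the ratio to the control mean. Points are mice. The class II members sum to 2317 to 4681 FPKM in control, 83.8 to 1585 in MYO5B-knockout and 185 to 392 in LPA-treated mice. The T cell marker sum, most of it Gzma, is 292 to 408, 11.3 to 120 and 21.7 to 41.2 FPKM. The epithelial marker sum, of which Krt8 is the largest part, is not lower in knockout mice, although single markers are.

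Enterocyte genes mostly missed the threshold. Of 10, 1 fell between MYO5B-knockout and control mice and 2 between LPA-treated MYO5B-knockout and control mice. Lct, lactase, stood at -8.32 on the log2 scale (limma's adjusted p = 0.00935) and -9.23 (limma's adjusted p = 0.00661). Slc5a1, the sodium-glucose transporter, averaged 844 FPKM in control and 240 FPKM in LPA-treated mice (log2 fold change -1.79, limma's adjusted p = 0.0284). The summed enterocyte level was 31609 to 41523 FPKM in control, 14463 to 26643 in MYO5B-knockout and 22628 to 43556 in LPA-treated mice.

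Outside the members, the genes most like Cd74 over the 10 libraries, by Pearson's r of log2(FPKM + 0.1) among 10575 genes averaging 1 FPKM or more, were Ccl5 (r = 0.976), Scly (0.969), H2-T22 (0.967), H2-T23 (0.958), Barx2 (0.956), Trbc1 (0.954), Pla2g16 (0.954), Mettl7b (0.948), Gzma (0.943) and Lipe (0.942). Ccl5, a chemokine, averaged 130, 20.9 and 11.5 FPKM in control, MYO5B-knockout and LPA-treated mice. Those most like Ciita were Gzmb (r = 0.990), Smad6 (0.979), Mylk (0.977), Npc1l1 (0.975), Tnfsf13b (0.972), Tapbpl (0.971), Cldn15 (0.969), Tbx3 (0.968), Ckmt1 (0.967) and Iyd (0.966). Among the members themselves, H2-Eb1 (0.988), H2-Ab1 (0.987), H2-Aa (0.978), H2-DMa (0.977), H2-DMb1 (0.970) and Ciita (0.857) went with Cd74, whereas H2-Ob (0.10), H2-DMb2 (0.01) and H2-Oa (-0.26) did not. All these correlations share the same libraries, depths and group differences, and are descriptions.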

How the data were processed

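RNA of jejunal epithelial cells was sequenced in 10 mice of 3 groups, assigned from the sample titles. The authors deposited FPKM for 35275 genes, without scaling between libraries stated. The submitters' processing notes name STAR 2.5, TopHat, HTSeq 0.6.1 and DESeq2 without roles, and the builds GRCm38 and mm10; strand setting and annotation release are not given in the sources used here. FPKM times gene length were whole multiples of 1 read in 100% of values (tolerance 0.1), and 63 of 63 read counts that the authors deposited for some genes equalled the recovered counts; 7 further columns of FPKM per sample beside them were not used. The authors' fold changes, p-values and enriched pathways of their own comparisons were not used. Coordinates are those of the deposited table; 2 of the 10 members have identical ones in GENCODE M21.

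The main test was limma 3.58.1 (R 4.3.3) on log2(FPKM + 0.1), two-sided, with a variance trend, all 3 groups in 1 model and Benjamini-Hochberg adjustment over the 15729 genes averaging 0.1 FPKM or more. The threshold was an adjusted p of 0.05. Folds on this scale understate changes of low genes. Per 1 kb of gene, 1 read is worth 0.0409 to 0.0913 FPKM. Intervals and limits from reads cover counting error only, and PCR copies are not independent molecules. That the numbered libraries are separate animals is what the titles say. Alternatives were other pseudocounts (1 and 0.01), other filters, median-ratio scaling, only the groups compared, edgeR 4.0.16 and DESeq2 1.42.0 on recovered reads, a replicate block, and each mouse left out. The fits were tested on simulated data.

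The members and gene lists were chosen with earlier results of these data known. Every member was named; of each other list, the genes that passed (at most 4), plus single genes quoted as background to a list, which were chosen after their values were seen. Likeness to Cd74 and Ciita names 10 genes each. Promoter sequences came from RefSeq (GRCm38.p6).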

Additional observations from a re-analysis of the deposited data

How the results depend on the processing

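Against control, the 7 members from Cd74 to Ciita kept a log2 fold change below 0 in both knockout groups under every alternative that gave a value, but the calls did not hold. Between MYO5B-knockout and control mice, the 3 members that passed became 0 with no filter on low values, with only the 2 groups in the model, without the 2 sparse libraries and without the 2 mismatched libraries, and 5 with median-ratio scaling. Leaving out single mice gave 0 to 5. Over all genes the 316 calls became 188 with no filter, 50 with only the 2 groups, 598 with median-ratio scaling, 519 by edgeR, 1831 by DESeq2, 778 without the sparse libraries, and 44 to 403 without single mice. Between LPA-treated MYO5B-knockout and control mice, the 3 members became 6 with scaling, 5 with only the 2 groups, 5 without the sparse libraries, 0 without the mismatched ones, and 0 to 6 without single mice. The 365 calls over all genes became 190 with only the 2 groups, 1503 by DESeq2, 1346 without the sparse libraries, and 73 to 702 without single mice. Scaling turned the split of calls from 177 higher and 139 lower to 223 and 375 in MYO5B-knockout mice, and from 243 and 122 to 221 and 269 in LPA-treated mice. The causes were not tested.

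Between LPA-treated and vehicle-treated MYO5B-knockout mice the members' count was 0 throughout, and DESeq2 called 7 genes in all. Differences near 0 changed sign there: H2-Eb1 (0.17) was -0.56 by edgeR, -0.0665 without the sparse libraries and -0.17 without the mismatched ones. Without single mice the values ran from -0.97 to 0.55 for Cd74, -0.99 to 0.52 for H2-Aa, -1.06 to 0.20 for H2-Ab1, -0.36 to 0.86 for H2-Eb1, -0.70 to 0.38 for H2-DMa and -1.14 to 0.18 for Ciita. DESeq2 gave no adjusted p for Cd74, H2-Ab1, H2-Eb1 and H2-DMa. With a replicate block on the mouse number (consensus correlation -0.0241), 3, 0 and 2 members and 302, 0 and 311 genes passed in the 3 comparisons; mouse number 4 is shared by control and LPA-treated mice (correlation of deviations 0.10) and number 5 by all 3 groups (-0.36 for control with LPA-treated, 0.30 for control with MYO5B-knockout and -0.21 for MYO5B-knockout with LPA-treated), so the numbers were not taken to pair the mice. Depth limits H2-DMb2, H2-Ob, H2-Oa and Ciita.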

Other observations

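The costimulatory genes that accompany class II on antigen-presenting cells were read last. Of 6 in the table, 4 were tested, and 0 passed in any of the 3 comparisons by limma. Cd40 averaged 0.0591 FPKM in control, 0.429 FPKM in MYO5B-knockout and 0.691 FPKM in LPA-treated mice (log2 fold change 2.33 between LPA-treated and control mice, unadjusted p = 0.00402, limma's adjusted p = 0.0916). Icosl averaged 1.74, 1.93 and 2.5 FPKM. H2-Eb2, a neighbour of H2-Eb1, was at 0 to 0.0588 FPKM in control mice and reached 0.910 FPKM in a single library, MYO5B-knockout mouse 3.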
